A study of Mus musculus with 16 samples.

Results

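The genes of the E-cadherin junction and of the desmosome were followed in scratched and intact airway epithelial cultures from wild-type and Mmp7-null mice. They were taken by name, though with earlier results of these data known. They were Cdh1 (E-cadherin), the catenin genes Ctnna1, Ctnnb1, Ctnnd1 and Jup, and the desmosomal genes Dsp, Dsg2, Dsc2, Pkp1 and Pkp3. These are 10 of the 18193 genes measured, and they are read by 26 of the 34945 probe sets that carry 1 gene symbol. A probe set is a group of short oligonucleotides on the array that together measure a transcript or several related ones. Sets whose names end in _a_at, _s_at or _x_at hold probes that may match several transcripts. No probe set of these genes carries a second symbol.

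The cells were airway epithelial cells of C57BL/6 mice grown at an air-liquid interface, and RNA of 16 cultures was hybridised to 1 Affymetrix expression array each. The 4 groups of 4 arrays were wild-type uninjured, wild-type scratched, Mmp7-null (Mmp7-/-) uninjured and Mmp7-null scratched. All cultures spent 24 hours in serum-free medium before harvest, and scratched cultures were wounded by 3 parallel lines drawn with a pipet tip. The labels do not give the time between scratching and harvest, the animals' age or the animal behind each culture, so p-values measure only the spread between these 16 cultures. They also do not say whether cells away from the scratches were harvested with those beside them.

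E-cadherin is the calcium-dependent adhesion protein of epithelial adherens junctions, and its extracellular domain can be released by metalloproteinases. Mmp7 (matrilysin), a secreted metalloproteinase of injured airway epithelium, is one of the enzymes known to cleave it. Inside the cell, p120-catenin (Ctnnd1) holds E-cadherin at the membrane, β-catenin (Ctnnb1) or plakoglobin (Jup) binds its tail, and α-catenin (Ctnna1) links the complex to actin. In desmosomes the cadherins Dsg2 and Dsc2 bind plakoglobin and the plakophilins (Pkp1, Pkp3), and desmoplakin (Dsp) ties them to keratin filaments. Cleavage acts on the protein, and the arrays measured RNA only.

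All 10 genes had a leading probe set, the one with the highest mean over the 16 arrays, above a background of 2.97 on the log2 scale, and 24 of the 26 probe sets had a mean above it. The 2 below it were 1437275_at of Ctnna1 and 1426153_a_at of Dsg2. The Mmp7 probe set itself could not check the genotype labels, because its log2 intensity lay at background in every group, from 2.13 to 2.59. All 6 pan-epithelial and all 9 basal cell markers lay above background. Of the leukocyte list Ptprc, Itgam, Cd3e, Cd79a, Tyrobp and Fcer1g lay at or below background on every array, as did Pecam1, Cdh5, Kdr, Tek, Tie1 and Emcn of the endothelial list. Spiked-in control transcripts divided the arrays into a Lys set of 4, a Phe set of 6 and a Trpn set of 6. The genotypes share only the Phe set, with 1 wild-type and 2 Mmp7-null arrays in each state; what the sets stand for is not stated. Replicates 3 and 4 of the wild-type scratched group and replicate 1 of the Mmp7-null scratched group stood apart. Wild-type scratched 3 and Mmp7-null scratched 1 had upper quartiles of 115.0 and 119.1 intensity units against 125.8 to 134.0 on the other arrays. Wild-type scratched 4 had actin 3′ and 5′ control probe sets 2.62 apart on the log2 scale against at most 1.93 elsewhere. Member calls are given with and without these arrays and sets, and for the genes of the other lists the effect is given as counts.

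The promoters of Jup and Dsp are shown because both genes were lower in uninjured Mmp7-null cultures. Cdh1, also lower there, is named only. Both are from RefSeq on GRCm38.p6, 5′ to 3′ on the gene's strand, and cover the 200 bases from 250 to 51 upstream of the annotated start: Jup at chr11:100397841-100398040 on the minus strand and Dsp at chr13:38151044-38151243 on the plus strand. Capitals mark the GC box GGGCGG or its complement, the motif bound by Sp-family factors.
Jup: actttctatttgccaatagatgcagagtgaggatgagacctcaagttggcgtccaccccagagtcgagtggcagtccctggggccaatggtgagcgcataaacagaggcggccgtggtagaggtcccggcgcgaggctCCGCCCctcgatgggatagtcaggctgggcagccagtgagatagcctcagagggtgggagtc
Dsp: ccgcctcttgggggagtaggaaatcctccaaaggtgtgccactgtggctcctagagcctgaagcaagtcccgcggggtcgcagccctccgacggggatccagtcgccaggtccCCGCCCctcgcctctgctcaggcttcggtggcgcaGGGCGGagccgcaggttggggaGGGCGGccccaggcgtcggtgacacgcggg
The Jup window holds 1 GC box and the Dsp window 3. Of 32851 promoter windows of that length 24.64% hold at least 1 and 4.34% at least 3. The E-box CAGGTG, which Snail and Zeb repressors bind, and the TCF/LEF motif CTTTGAT were searched on both strands and have no match in either window; 14.43% and 2.64% of all windows hold them. These matches are letters in a window and not shown sites.

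Plakoglobin carried the clearest pattern of the 10 genes, with the uninjured wild-type cultures above every other group. The log2 intensity of Jup in the uninjured wild-type arrays was 9.53, 9.62, 9.53 and 9.44. The scratched wild-type arrays read 9.03, 9.17, 9.09 and 8.97, the uninjured Mmp7-null arrays 8.89, 9.14, 8.94 and 9.08, and the scratched Mmp7-null arrays 8.98, 8.95, 9.03 and 8.88. The gene has 1 probe set, 1426873_s_at, so no second set can check this pattern. No array of the other 3 groups reached the lowest uninjured wild-type value, and those 3 groups overlapped with each other.

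**Figure D1:**
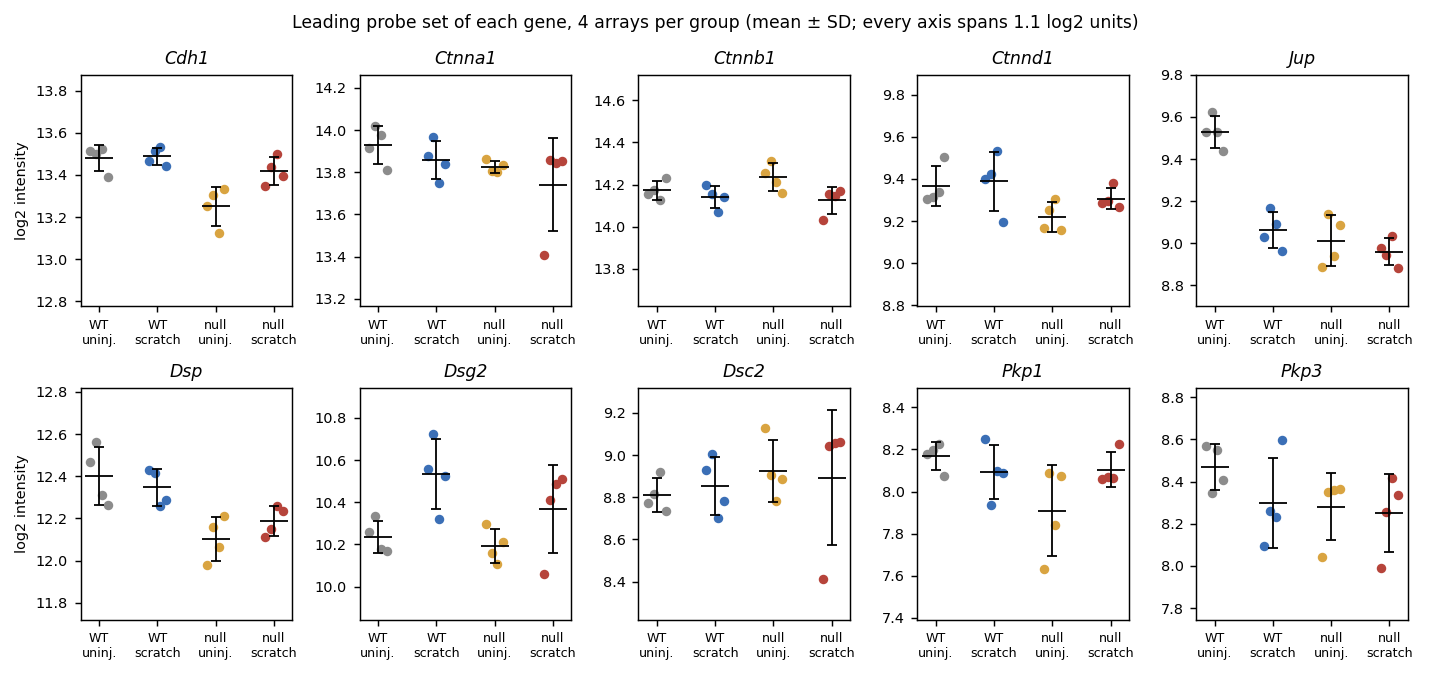
Log2 intensity of the leading probe set of each of the 10 genes (vertical axis) in the 4 groups (horizontal axis), 1 point per array, with the group mean and SD from 4 arrays. Jup is highest in the uninjured wild-type arrays, at 9.44 to 9.62, Cdh1 and Dsp have their lowest group mean in uninjured Mmp7-null arrays, and the Mmp7-null scratched array lying apart in Ctnna1 and Dsc2 is replicate 1.

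Scratching wild-type cultures lowered Jup and no other member passed the test. Jup fell by 0.46 on the log2 scale (SE 0.06, limma adjusted p = 0.00043, n = 4 per group), and its intensity fell by 27.5%, with all 4 scratched arrays below all 4 uninjured ones. This is 1 of 10 members called, where 4.85% of all genes were called and 2.3% were called lower; 1 of 10 members was separated without overlap, against 10% of all genes. Jup kept its call with the spike-in set in the model (-0.46, adjusted p = 0.0018) and without the 3 arrays that stood apart (-0.43, adjusted p = 0.012). Within the Trpn set the change was -0.45 (adjusted p = 0.023) and within the Phe set, with 1 array per group, -0.50 (adjusted p = 0.21). A fall in Jup RNA per cell and a smaller share of the cells that express it cannot be told apart in these bulk cultures.

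Desmoglein-2, a desmosomal cadherin, was the member nearest to a call in the other direction. Its leading probe set read 10.26, 10.33, 10.18 and 10.17 in uninjured and 10.56, 10.73, 10.32 and 10.52 in scratched wild-type arrays. The groups overlap at 1 scratched array, replicate 3, which read 10.32, below the highest uninjured value. The change was 0.30 (SE 0.10, adjusted p = 0.11). A second probe set of Dsg2, 1449740_s_at, read 9.20, 9.23, 9.13 and 8.92 in uninjured and 9.54, 9.65, 9.42 and 9.54 in scratched wild-type arrays, with no overlap. It rose by 0.42 (SE 0.09, limma adjusted p = 0.027 over all probe sets, of which 3.02% were called). Its call was lost when wild-type uninjured replicate 3 or 4, or wild-type scratched replicate 1, 2 or 4, was left out. Without the 3 arrays that stood apart the leading probe set passed, at 0.41 (adjusted p = 0.0068), which makes 2 members called, and 1449740_s_at did not, at 0.48 (adjusted p = 0.060). Of the 5 Dsg2 probe sets above background, 4 had a positive change in this comparison.

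The remaining members did not pass the test for scratch in wild-type cultures. Cdh1 changed by 0.01 (95% interval -0.10 to 0.11), with scratched arrays at 13.44 to 13.53 and uninjured arrays at 13.39 to 13.52. Ctnna1 (-0.07), Ctnnb1 (-0.03), Ctnnd1 (0.02), Dsp (-0.05), Dsc2 (0.05), Pkp1 (-0.07) and Pkp3 (-0.17) had adjusted p-values from 0.52 to 0.93. The suffix of the leading Ctnna1 probe set, 1437807_x_at, marks probes that may also bind other transcripts; the next brightest, 1448149_at, changed by 0.04. The median change of the 10 members was -0.04, beside 0.01 over all genes. Among the dimmer probe sets, 1450008_a_at of Ctnnb1 changed by -0.29 (SE 0.13) and 1418832_at of Pkp3 by -0.45 (SE 0.18), and neither passed the test over all probe sets (adjusted p = 0.32 and 0.27).

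In Mmp7-null cultures no member passed the test for scratch, against 4.72% of all genes called; the smallest adjusted p was 0.069 and 2 members had an unadjusted p under 0.05 by limma. That smallest value belonged to Cdh1, which read 13.25, 13.30, 13.12 and 13.33 in uninjured and 13.35, 13.44, 13.50 and 13.39 in scratched Mmp7-null arrays. All scratched arrays lay above all uninjured ones, which 12.8% of all genes showed in one direction or the other. The change was 0.17 (SE 0.05). The value was 0.24 within the Phe set and 0.09 within the Lys set (adjusted p = 0.29 and 0.69). Under repeated quantile normalization it passed the test (0.21, adjusted p = 0.014), and under array weights too (0.17, adjusted p = 0.042).

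Ctnnb1, the other gene with an unadjusted p under 0.05, changed by -0.11 (SE 0.04, adjusted p = 0.17), and its 3 probe sets ran from -0.31 to -0.11. Jup changed by -0.05 (95% interval -0.18 to 0.08, adjusted p = 0.77). Dsg2 changed by 0.17 (SE 0.10, adjusted p = 0.42) and passed without the 3 arrays that stood apart, at 0.28 (adjusted p = 0.025), so that 1 member was then called. In the arrays behind it, Mmp7-null scratched replicate 1 read 10.06 and the other 3 scratched arrays 10.41 to 10.51, with uninjured arrays at 10.11 to 10.30. The 6 members not yet given ran from -0.09 (Ctnna1) to 0.20 (Pkp1), and the median of all 10 was 0.03 beside -0.02 over all genes.

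**Figure D2:**
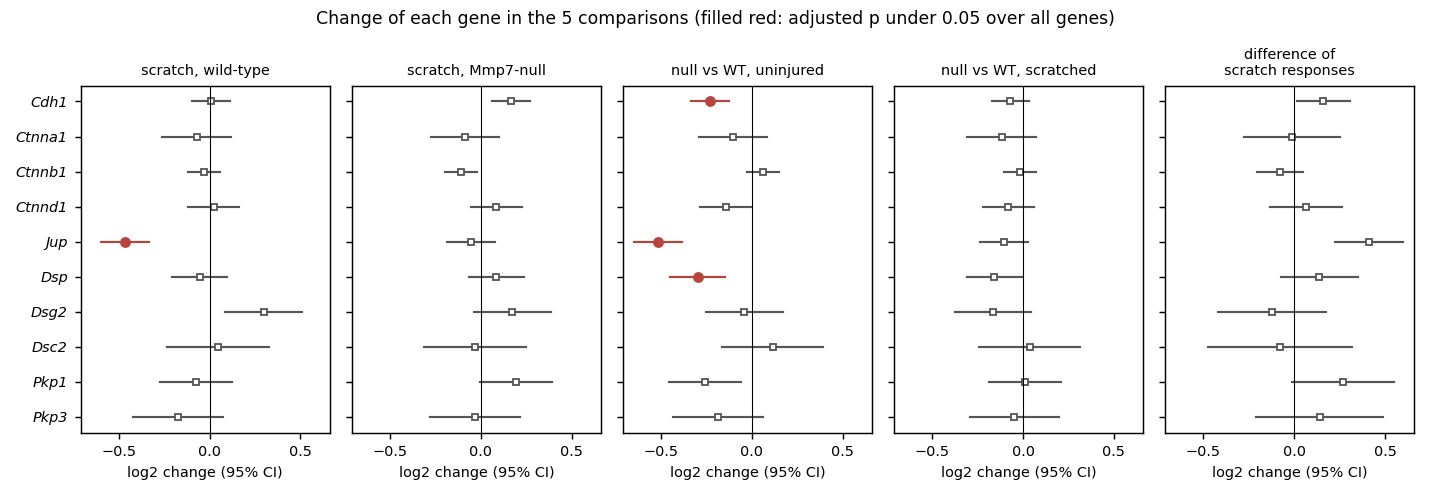
Log2 change with its 95% interval (horizontal axis) for each of the 10 genes (vertical axis) in the 5 comparisons, from limma on 16 arrays; filled red circles passed an adjusted p of 0.05 over all genes and open squares did not. Jup is called in the wild-type scratch panel at -0.46 and, with Cdh1 and Dsp, in the panel for genotype in uninjured cultures.

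The difference between the scratch responses was tested directly, as Mmp7-null minus wild-type. No member passed, and 0.132% of all genes did; 2 members, Jup and Cdh1, had an unadjusted p under 0.05 by limma. Jup had a difference of 0.41 (SE 0.09, 95% interval 0.22 to 0.60, adjusted p = 0.11), and its adjusted p ran from 0.079 to 0.72 over 27 alternative settings. Its value without the 3 arrays that stood apart was 0.37 and with the spike-in set in the model 0.41. Cdh1 had a difference of 0.16 (SE 0.07, adjusted p = 0.59). The fall of Jup in wild-type and its smaller change in Mmp7-null cultures are therefore not shown to differ.

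Before injury, 3 members were lower in Mmp7-null than in wild-type cultures: Jup, Cdh1 and Dsp. They are 3 of 10, where 4.79% of all genes were called and 2.5% were called lower, and each was separated without overlap, as 11.7% of all genes were in one direction or the other. Jup was lower by 0.52 on the log2 scale (-0.52, SE 0.06, adjusted p = 0.00052, n = 4 per group), or -30.1% in intensity. This comparison shares the 4 uninjured wild-type arrays with the wild-type scratch comparison. It shares the 4 uninjured Mmp7-null arrays with the Mmp7-null scratch comparison, so results for 1 gene in both are not independent.

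Cdh1 read 13.51, 13.50, 13.52 and 13.39 in the uninjured wild-type arrays against the 13.12 to 13.33 of uninjured Mmp7-null arrays given above. The change was -0.23 (SE 0.05, adjusted p = 0.014), or -14.7%. Desmoplakin read 12.47, 12.56, 12.31 and 12.27 in uninjured wild-type and 11.98, 12.16, 12.06 and 12.21 in uninjured Mmp7-null arrays. The groups lay close without touching, and the change was -0.30 (SE 0.07, adjusted p = 0.027), or -18.7%. The second bright probe set of Dsp, 1435494_s_at, changed by -0.32 (SE 0.10) and did not pass (adjusted p = 0.12 over all probe sets, of which 2.78% were called).

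**Figure D3:**
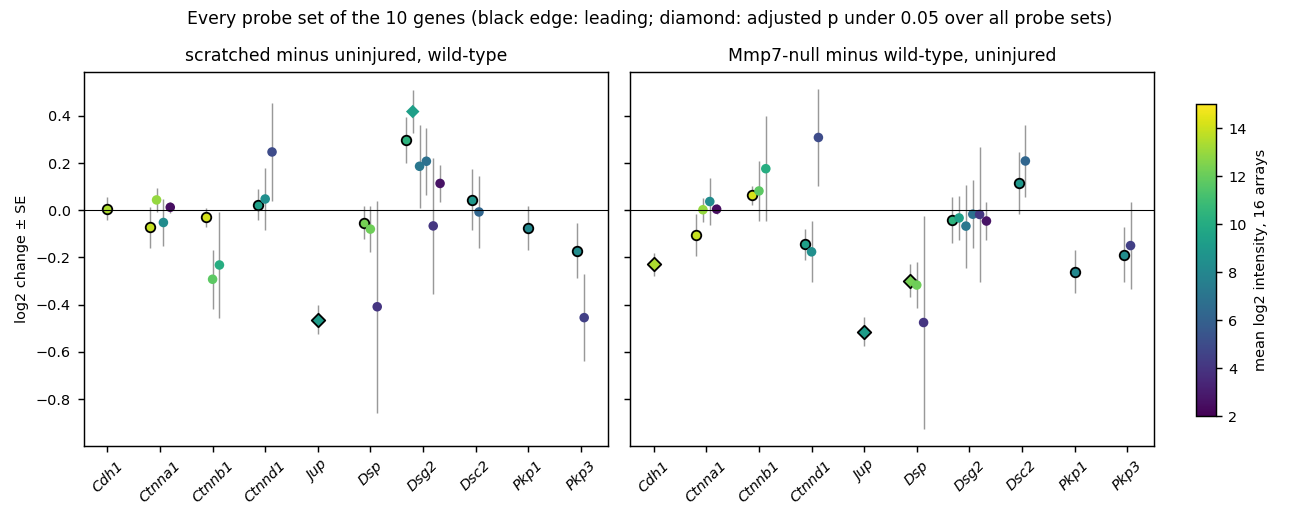
Log2 change with its SE (vertical axis) of all 26 probe sets by gene (horizontal axis), for scratch in wild-type (left) and for genotype in uninjured cultures (right); colour gives the mean log2 intensity over 16 arrays, black edges mark leading probe sets and diamonds an adjusted p under 0.05 over all probe sets. All 3 Dsp probe sets lie below 0 for genotype, from -0.48 to -0.30, and Dsg2 has a called probe set at 0.42 for scratch.

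All 3 genotype calls were lost once the spike-in set entered the fit, with little movement of their size. Jup was then -0.48 (adjusted p = 0.055), Cdh1 -0.22 (adjusted p = 0.29) and Dsp -0.35 (adjusted p = 0.19), and 57 of all genes were called in place of 872. Within the Phe set, 2 Mmp7-null arrays against 1 wild-type array, the values were -0.52, -0.29 and -0.33 (adjusted p = 0.22, 0.38 and 0.64). Dsp also lost its call when uninjured Mmp7-null replicate 1 or 3 or uninjured wild-type replicate 1 or 2 was left out (adjusted p up to 0.097). Jup and Cdh1 kept theirs in 8 of 8 such repeats, with limma adjusted p up to 0.0027 for Jup and 0.048 for Cdh1. Cdh1 also missed the threshold after each array was centred on its median (-0.25, adjusted p = 0.093). Tested over all probe sets, Cdh1 lost its call without uninjured Mmp7-null replicate 1 or uninjured wild-type replicate 1, 2 or 3 (limma adjusted p from 0.055 to 0.066). It also lost that call on only the 8 arrays compared (limma adjusted p = 0.083). Tested over genes, Cdh1 and Dsp both lost their call on those 8 arrays, and Jup kept it. Of 20 alternatives tested over genes, the call was kept in 18 for Jup, 16 for Cdh1 and 12 for Dsp.

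**Figure D4:**
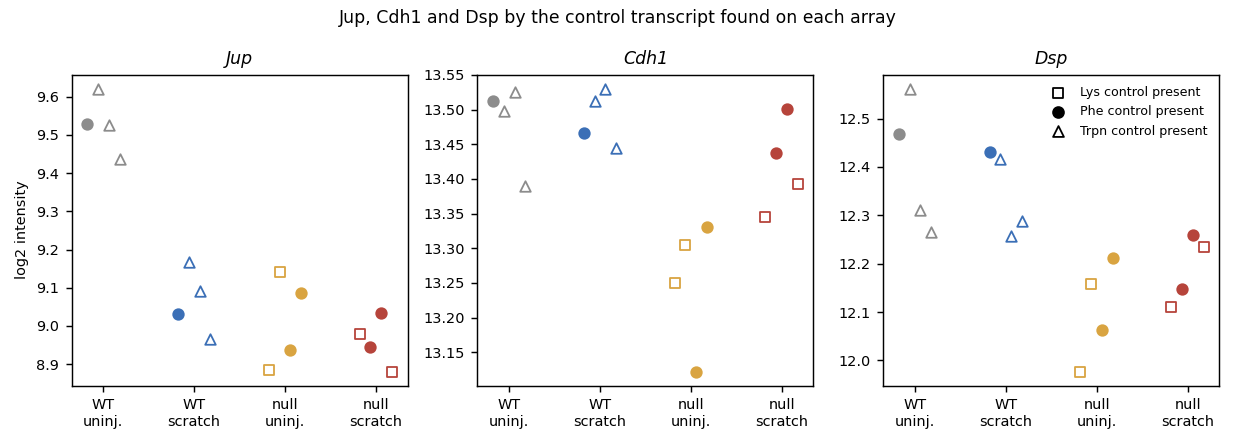
Log2 intensity of Jup, Cdh1 and Dsp (vertical axes, each with its own range) by group (horizontal axis), 1 point per array, with the marker giving the control transcript present on the array (square Lys, filled circle Phe, triangle Trpn). The Phe array of uninjured wild-type reads 9.53 for Jup, and the 2 Phe arrays of uninjured Mmp7-null read 8.94 and 9.08.

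The other members were not called before injury. Plakophilin-1 changed by -0.26 (SE 0.09, adjusted p = 0.15), with Mmp7-null arrays at 7.63 to 8.09 and wild-type arrays at 8.07 to 8.23. Ctnnd1 changed by -0.14 (SE 0.07, adjusted p = 0.30). Pkp3 (-0.19), Ctnna1 (-0.10) and Dsg2 (-0.04) were also negative, and Ctnnb1 (0.06) and Dsc2 (0.11) positive. The 5 Dsg2 probe sets above background lay between -0.07 and -0.02. The median member change was -0.17, beside -0.01 over all genes.

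After scratching, no member differed between the genotypes past the threshold, against 6.21% of all genes called; 1 member, Dsp, had an unadjusted p under 0.05 by limma. Dsp read 12.11, 12.15, 12.26 and 12.23 in scratched Mmp7-null and 12.43, 12.42, 12.26 and 12.29 in scratched wild-type arrays, which overlap narrowly. Its change was -0.16 (SE 0.07, adjusted p = 0.21). Jup changed by -0.10 (95% interval -0.24 to 0.03) and Cdh1 by -0.07 (-0.17 to 0.03). The median member change was -0.08 beside -0.04 over all genes, and none of the 10 was separated without overlap, against 32.7% of all genes.

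Some cell type markers were called in the same contrasts. Over all genes 4.79% were called for genotype in uninjured cultures. For scratch the shares were 4.85% in wild-type and 4.72% in Mmp7-null cultures. In uninjured Mmp7-null against wild-type cultures 9 of 12 multiciliated markers were higher, and the log2 of their summed intensity was 13.56 to 13.90 against 12.997 to 13.214. Of 8 alveolar markers 3 were lower (Ager, Hopx and Cldn18) and 1 higher (Sftpc), with a summed level of 11.89 to 12.13 against 12.76 to 12.89. Of 9 basal cell markers 2 were lower, Krt5 and Bcam, but the summed basal level overlapped between genotypes, at 14.67 to 14.75 and 14.57 to 14.74. Of 11 fibroblast and smooth muscle markers 2 were higher, Dcn and Acta2, with a summed level of 7.91 to 8.57 against 7.14 to 7.51 and with Pdgfrb and Lum at background on every array. Of 12 squamous markers 1 was lower, Tgm1, and 1 higher, Sbsn, with a sum of 12.66 to 12.758 against 12.783 to 12.895. Krt1 and Krtdap of that list lay at or below background on every array. In scratched against uninjured wild-type cultures 3 of 9 basal markers were lower (Trp63, Krt5 and Bcam), and the summed basal level was 14.48 to 14.56 in scratched arrays. In the same contrast 2 of 11 fibroblast and smooth muscle markers were higher, Dcn and Acta2, with a sum of 7.99 to 8.53 against 7.14 to 7.51. Of 10 leukocyte markers 1, Cd68, was higher there, and the leukocyte sum was 13.09 to 13.44 against 12.67 to 13.08, with the 6 named above at background. Of 9 secretory markers 1, Muc5b, was higher, while the secretory sum overlapped, at 17.37 to 17.48 and 17.30 to 17.52. Of 6 pan-epithelial markers 2 were higher, Krt8 and Krt18, with a sum of 15.641 to 15.752 against 15.431 to 15.527. Of 12 multiciliated markers 2 were lower, Rsph4a and Deup1, while their sum overlapped, at 12.848 to 13.152 and 12.997 to 13.214. Of 12 squamous markers 1, Sprr1a, was higher, and their sum overlapped, at 12.68 to 13.07 and 12.783 to 12.895. In scratched against uninjured Mmp7-null cultures 2 of 9 basal markers were lower, Krt5 and Krt15, with a sum of 14.23 to 14.44 against 14.67 to 14.75. The leukocyte sum was 13.12 to 13.45 against 12.66 to 13.10 there, and none of its 10 markers was called. Of 11 fibroblast and smooth muscle markers 1, Dcn, was higher there, with a sum of 8.67 to 9.43 against 7.91 to 8.57. Of 12 squamous markers 3 were higher (Krt6a, Ivl and Sprr1a) and 2 lower (Krt4 and Sbsn) there. The squamous sum was 12.045 to 12.63 against 12.66 to 12.758. Krt8 and Krt18 were higher among the 6 pan-epithelial markers, and the pan-epithelial sum overlapped, at 15.521 to 15.75 and 15.496 to 15.647. The part of these markers in the changes of Jup, Cdh1 and Dsp was not tested.

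The other genes of these junctions were taken from lists of names. Of 27 further adherens junction genes, scratching in wild-type lowered 3 and raised none, where 2.3% of all genes were called lower, with a median of -0.10 beside 0.01 over all genes. Ptprm, a receptor phosphatase found in cadherin complexes, changed by -0.63 (SE 0.14, adjusted p = 0.016). Ptprf, another receptor phosphatase, changed by -0.32 (SE 0.08, adjusted p = 0.034) and Tjp1, the tight junction scaffold ZO-1, by -0.40 (SE 0.09, adjusted p = 0.025). Ptprf and Tjp1 each kept their call in 1 of 8 repeats that left out 1 array. In Mmp7-null cultures scratching lowered only Cdh13, a cadherin without a cytoplasmic tail (-0.78, SE 0.16, adjusted p = 0.015), among the 27. In that comparison 4.72% of all genes were called. Before injury 4 of the 27 were lower in Mmp7-null cultures and 1, Cdh13, higher, where 4.79% of all genes were called; the lower ones included Ptprm (-0.65), Ptprf (-0.45) and Cdh3 (-0.37), the gene of P-cadherin. After scratching none of the 27 was called between genotypes, where 6.21% of all genes were.

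Of 9 other desmosome genes measured, 2 were lower after scratching in wild-type, against 2.3% of all genes. Perp, a membrane protein of desmosomes, changed by -0.42 (SE 0.07, adjusted p = 0.0034). Periplakin (Ppl), a plakin that links desmosomes to filaments, changed by -0.33 (SE 0.07, adjusted p = 0.011), and by -0.30 without the 3 arrays that stood apart, where its call was lost (adjusted p = 0.067). In Mmp7-null cultures it changed by -0.41 (SE 0.07, adjusted p = 0.0033). Envoplakin (Evpl), its partner, was lower in uninjured Mmp7-null than wild-type cultures (-0.64, SE 0.10, adjusted p = 0.0026). In scratched cultures Ppl was lower (-0.27) and Perp higher (0.30) in Mmp7-null than in wild-type. Of these 9 genes 5 had a mean above background.

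Keratins, the filaments that desmosomes anchor, moved in both directions after scratching. Of 12 filament genes 3 rose and 2 fell in wild-type, and 4 rose and 3 fell in Mmp7-null cultures. Over all genes 4.85% and 4.72% were called in these comparisons. Krt18 and Krt8, the simple epithelial pair, rose in wild-type by 0.60 (SE 0.06, adjusted p = 2.64e-05) and 0.51 (SE 0.06, adjusted p = 0.00031). In Mmp7-null cultures Krt18 and Krt8 rose by 0.38 and 0.41 (limma adjusted p = 0.0018 and 0.0030). Krt5, the basal cell keratin, changed by -0.80 in wild-type and -0.45 in Mmp7-null. Krt17, a keratin of injured epithelium, rose by 0.71 in wild-type and 0.93 in Mmp7-null cultures. The wild-type call was kept in 5 of 8 repeats that left out 1 array and was lost without the 3 arrays that stood apart (0.59, adjusted p = 0.077). Krt6a rose by 0.99 in Mmp7-null cultures and changed by 0.67 in wild-type, where it was not called. Krt15 fell by 0.45 in Mmp7-null cultures and changed by -0.14 in wild-type, also without a call. Vimentin (Vim), the filament of mesenchymal cells, was higher in scratched Mmp7-null than in scratched wild-type cultures by 1.71 (SE 0.30, adjusted p = 0.0037). It kept that call with the spike-in set in the model (2.05, adjusted p = 0.036). Of the 12 filament genes 2 were higher in that contrast, Vim and the basal keratin Krt14 (0.53, SE 0.15, limma adjusted p = 0.049). Krt14 kept its call in 2 of 8 repeats that left out 1 array. In the same contrast, where 6.21% of all genes were called, 1 of 11 fibroblast and smooth muscle markers was higher, Acta2. The summed level of that list was 8.67 to 9.43 against 7.99 to 8.53. Of 12 multiciliated markers 11 were higher, with a sum of 13.65 to 13.91 against 12.85 to 13.15. The part of these markers in the difference of Vim was not tested.

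Of 18 regulators of E-cadherin transcription, among them the Snail, Zeb and Twist repressors, scratching in wild-type lowered 2, Klf4 (-0.44, SE 0.09, adjusted p = 0.011) and Grhl1 (-0.46, SE 0.11, adjusted p = 0.023), both activators of epithelial genes; 2.3% of all genes were called lower. None was called for scratch in Mmp7-null cultures, where 4.72% of all genes were. Klf4 (-0.38) and Tcf4 (-0.30) were lower in uninjured Mmp7-null cultures, where 2.5% of all genes were. After scratching none of the 18 was called by genotype, where 6.21% of all genes were.

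Of 22 genes of E-cadherin cleavage and turnover, 2 were lower in uninjured Mmp7-null cultures and 3 in scratched ones, where 4.79% and 6.21% of all genes were called. Adam9, a membrane protease, was lower in both states (-0.33 and -0.27, adjusted p = 0.0051 and 0.015). Mmp14 was lower before injury (-0.84, SE 0.22, adjusted p = 0.043) and kept that call in 1 of 8 repeats that left out 1 array. Htra1, a secreted serine protease, rose with scratching in wild-type (0.46, SE 0.10, adjusted p = 0.013). It was lower in scratched Mmp7-null than in scratched wild-type cultures (-0.54, SE 0.10, adjusted p = 0.0043), as was Adam17 (-0.19). Psenen, a γ-secretase subunit, was the 1 call for scratch in Mmp7-null (-0.28, adjusted p = 0.041), where 4.72% of all genes were called.

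β-catenin also carries Wnt signals, so its partners and targets were counted. None of 19 destruction complex and cofactor genes and none of 19 target genes passed the test for scratch in either genotype, where 4.85% and 4.72% of all genes did. Tcf7l1, a TCF factor that mostly represses, was lower in Mmp7-null cultures before (-0.57, SE 0.08, adjusted p = 0.0018) and after scratching (-0.35, adjusted p = 0.025). Of the targets, Ephb3 was lower in both states (-0.42 and -0.39), and in scratched cultures Apcdd1 was lower (-0.66) and Cd44 higher (0.35). Of the 12 listed genes named for genotype in uninjured cultures, none kept the call with the spike-in set in the model, where 12 of 12 kept their sign. Of the 11 named in scratched cultures 1 did, Vim, and 11 of 11 kept their sign. For scratch in wild-type 11 of 12 named genes kept it and in Mmp7-null cultures 6 of 7. With 1 array left out in 8 repeats, the named genes that kept their call in every repeat were 8 of 12 for scratch in wild-type, 5 of 7 in Mmp7-null, 4 of 12 for genotype in uninjured and 4 of 11 in scratched cultures. Those 4 were Ptprf, Evpl, Adam9 and Tcf7l1 before injury and Htra1, Adam9, Apcdd1 and Vim after it. Without the 3 arrays that stood apart, the call was kept by 9 of 12 for scratch in wild-type (lost by Ptprf, Ppl and Krt17), 6 of 7 in Mmp7-null (lost by Psenen), 11 of 12 for genotype in uninjured (lost by Mmp14) and 6 of 11 in scratched cultures (lost by Ppl, Adam9, Tcf7l1, Apcdd1 and Ephb3). In the difference of scratch responses no gene of these lists was called, where 0.132% of all genes were.

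Genes whose log2 intensity followed Jup or Cdh1 most closely over the 16 arrays were ranked among 11654 genes above background. The arrays share 4 groups and 3 spike-in sets, so these correlations describe group patterns as much as single cultures. For Jup they were Abhd17c (Pearson r = 0.94), Rasl11a (0.91), Ptprf (0.90), Padi1 (0.90) and Dpysl2 (0.90). Over 21 settings, Abhd17c stayed among the first 5 in 21, Rasl11a in 16, Ptprf in 15, Padi1 in 11 and Dpysl2 in 8. Abhd17c, a depalmitoylating enzyme, averaged 9.12 in uninjured wild-type and 8.57 to 8.66 in the other 3 groups. For Cdh1 they were Atf3 (0.94), B2m (0.87), Myl12a (0.87), Sema4d (0.86) and Tsc22d2 (0.86), of which Atf3 stayed among the first 5 in 21 settings, Myl12a in 18, B2m in 17, Sema4d in 12 and Tsc22d2 in 11. Atf3, a stress-induced transcription factor, averaged 6.76 in uninjured and 6.71 in scratched wild-type, and 5.81 in uninjured and 6.38 in scratched Mmp7-null arrays. Among the members, Dsp followed both most closely, with r = 0.76 to Cdh1 and 0.69 to Jup, and the r between Cdh1 and Jup was 0.49.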

How the data were processed

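Per the labels, 16 cultures in 4 groups of 4 were each run on 1 Affymetrix array. The deposited table holds intensity values on a linear scale, made with RMA per the submitters' processing notes, which give no version. The labels name the 430A 2.0 array, whereas the table's 45101 probe sets are those of the larger array of the same family. Symbols came from the platform annotation: 34945 probe sets had 1 symbol, 932 several and 9160 none. Values were converted to log2 with no further normalization and no filter on dim genes. Each of 18193 genes was represented by its brightest probe set (mean over 16 arrays). The background of 2.97 is the 95th percentile of 162 values of absent spike-in controls, and 11655 genes had a mean above it. Array medians ran from 9.357 to 10.16 intensity units on the linear scale, before the conversion to log2.

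One limma model (limma 3.58.1, R 4.3.3) with a mean per group gave 12 residual degrees of freedom, and two-sided p-values were adjusted by Benjamini-Hochberg over all genes, or all 34945 probe sets for probe sets, with a threshold of 0.05. Tested on simulated data for scratch in wild-type (18193 genes), it recovered 50% of 100 genes changed by 0.5 on the log2 scale. Of 100 genes changed by 1 it recovered 91%, with 6 false calls in all. The changed genes lay above background. The simulated spread was independent between genes and held no spike-in set effect, so these rates do not describe the genotype comparisons. The number of arrays limits the precision. The members and all lists were chosen with earlier results of these data known. Named list genes are those called, at most 4 per list and comparison; those named as most alike are the 5 with the highest r. The text on list genes counts calls over all genes tested. Promoters matched 4 of 10 members. Alternatives were other normalizations, filters, probe set rules, variance models, array weights, replicate and spike-in blocks, and left-out arrays.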

Additional observations from a re-analysis of the deposited data

Results flagged for a closer look

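In 6 of 40 groups of 4 arrays, 1 array lay far from the other 3 by Dixon's criterion, which chance alone meets in about 1 of 20 groups. Replicate 1 of the scratched Mmp7-null group did so for 3 genes: Ctnna1 read 13.41 there against 13.84 to 13.86, Ctnnb1 14.03 against 14.15 to 14.17, and Dsc2 8.41 against 9.04 to 9.06. Replicate 4 of the same group read 8.23 for Pkp1 against 8.06 to 8.07. Replicate 4 of uninjured wild-type read 9.51 for Ctnnd1 against 9.31 to 9.34, and replicate 1 of uninjured Mmp7-null read 8.04 for Pkp3 against 8.35 to 8.37.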

How the results depend on the processing

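Each member change was recomputed under 20 to 27 alternatives, 1090 values in all. Of these 1068 kept their side of the threshold, 15 lost a call and 7 gained one. No called value changed sign; 61 values without a call did, all of members with a main change of at most 0.12. Scratch in wild-type called 2 members (main 1) under array centring, repeated quantile normalization, array weights and without the 3 arrays that stood apart, and 0 within the Phe set. Of their probe sets it called 0 within the Phe set (main 2), 1 within the Trpn set and 1 to 2 with 1 array left out. Scratch in Mmp7-null called 1 member (main 0) under quantile normalization, array weights and without those 3 arrays, and 1 probe set under the first and last. Genotype in uninjured cultures called 1 member (main 3) on the 8 arrays compared and 0 with the spike-in block or within the Phe set. The counts of probe sets were 1, 0 and 0, and 1 to 4 with 1 array left out. Counts over all genes ran from 204 to 1405 for scratch in wild-type (main 883), 79 to 1162 in Mmp7-null (859), 42 to 1310 for genotype in uninjured (872), 223 to 1745 in scratched cultures (1130), and 8 to 100 for the difference of responses (24). The cause was not tested.

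Replicate numbers gave no regular pairing of the arrays. The comparisons were scratch in wild-type, scratch in Mmp7-null, genotype in uninjured and genotype in scratched cultures. With 4 pairs in each, 2, 0, 0 and 1 pairs correlated over 0.1. For scratch in wild-type, replicates 2 and 3 correlated best with their own number (r = 0.14 and 0.31). Replicates 1 and 4 did not (r = -0.11 and -0.04), so pairing there is not excluded. With the replicate number as a block, wild-type scratch called 1 of the members' probe sets in place of 2, 1449740_s_at of Dsg2 losing its call (adjusted p = 0.065), and genotype in uninjured cultures called 2 in place of 3, the leading probe set of Dsp losing it over all probe sets (adjusted p = 0.069). Over genes the block changed no call of a member.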
